A study of Mus musculus with 2 samples.

Results

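Mature Ccr7 dendritic cells are the dendritic cells of a tissue that have switched on a program of migration towards lymph nodes. Here they were selected from 21211 CD45+ barcodes of mouse intrahepatic cholangiocarcinoma, and 119 barcodes met the rule, 40 in the library named MOCK and 79 in the library named NAV. The rule asked for at least 1 UMI (unique molecular identifier, 1 counted transcript) of Ccr7 and 1 of Fscn1, and for a sum of at least 4 UMIs over Ccr7, Fscn1, Ccl22, Il4i1 and Cacnb3. It also asked for at most 4 UMIs of C1qa, C1qb and C1qc together, at most 1 of Cd79a and Cd3e together, and at most 1 of Csf3r and Cxcr2 together, which keeps out macrophages, lymphocytes and neutrophils. These 12 genes chose the members, so their values are descriptions, and they were left out of the counts of genes past 2-fold. Where a later paragraph uses one of them it says so.

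All mice were C57BL/6 and carried the same tumour model, in which transposon vectors for Myr-AKT and YAPS127A are brought into the liver by hydrodynamic injection, a rapid injection into the tail vein. From day 7 the NAV mice received NAV2729 at 30 mg/kg every other day for 7 days, and the MOCK mice were treated without it; what the mock treatment held is not given in the labels. NAV2729 blocks the switching on of ARF proteins, GTP-binding switches needed for the assembly of COPI, a vesicle coat of the Golgi, and the series title names COPI as the target studied. The labels name no age, no sex and no promoter of the oncogenes. Perfused livers were digested and their CD45+ cells sorted, pooled and made into 1 BD Rhapsody library per group. How many tumours were pooled differs in the sources: 6 a group in one place and 3 pairs in another. With 1 library per group nothing separates the treatment from the spread between mice, pools or libraries, so no test between groups was made. Intervals below are exact 95% intervals that cover counting error only.

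Conventional dendritic cells come in a cDC1 type, which is specialised in presenting antigen of dead cells to CD8 T cells, and a cDC2 type, which mainly primes CD4 T cells. After taking up material either type can mature: it lowers uptake, raises the chemokine receptor CCR7 and the actin bundler fascin (Fscn1), and leaves the tissue along lymph vessels. In tumours such cells carry T cell stimulating molecules (CD80, CD86, CD40, IL-12) and inhibitory ones (PD-L1, encoded by Cd274, PD-L2, encoded by Pdcd1lg2, and CD200) side by side. They also make CCL22 and CCL17, which attract regulatory T cells.

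In the libraries, 10770 MOCK and 10441 NAV barcodes passed the filter of 500 UMIs, 200 genes and under 20% mitochondrial UMIs, with 45976676 and 31454031 UMIs deposited and a median of 3840 and 2169 UMIs per deposited barcode. Members had close depths in both libraries, with medians of 3861.5 and 3878 UMIs, 1661.5 and 1668 genes and 2.36% and 2.74% mitochondrial UMIs. Their summed depth was 157852 UMIs in MOCK and 323949 in NAV, so a gene's level in MOCK rests on fewer counts than its level in NAV. The libraries had 5 barcode sequences in common, and no member carried any of them. Scrublet scores, a measure of doublets, reached 0.147 in MOCK members and 0.239 in NAV members.

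Mature dendritic cells made up 0.371% of MOCK barcodes (0.265% to 0.505%, 40 of 10770) and 0.757% of NAV barcodes (0.599% to 0.942%, 79 of 10441). The NAV share was 2.04 times the MOCK share (1.38 to 3.06, 1 library each), a log2 ratio of 1.03 (0.46 to 1.61). The 2 other dendritic groups used for comparison were gates on a few marker genes: the cDC1 gate (at least 2 UMIs of Xcr1 and Clec9a) and the cDC2 gate (Cd209a, with at least 3 UMIs of Cd209a, Clec10a and Flt3). They moved the same way, the cDC1 gate from 0.613% to 1.14% (log2 0.90, 0.45 to 1.35) and the cDC2 gate from 1.39% to 2.01% (log2 0.53, 0.22 to 0.84). Of the barcodes in these 3 dendritic groups, members were 15.6% in MOCK (40 of 256, 11.4% to 20.7%) and 19.4% in NAV (79 of 408, 15.6% to 23.5%). The log2 ratio of that share was 0.31 with an interval of -0.26 to 0.90, which holds 0. Barcodes with at least 10 C1q UMIs, the macrophage gate, went from 25% of MOCK to 10.6% of NAV, so shares of all barcodes compare a different remainder in each library. When barcodes with at least 2400 UMIs were thinned to 2400, 31 of 6830 MOCK and 64 of 4975 NAV barcodes met the rule (log2 1.5, 0.86 to 2.17). Shallower barcodes were left out, and they were a larger part of NAV than of MOCK. That ratio therefore compares deep barcodes only and is not a share of all barcodes.

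**Figure D1:**
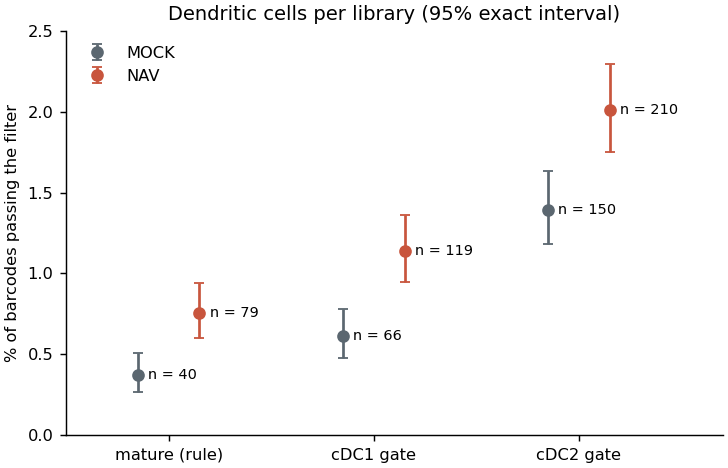
Share of barcodes passing the filter (%, y axis) that met the rule for mature dendritic cells, the cDC1 gate or the cDC2 gate, in the MOCK and NAV libraries (1 library each); bars are exact 95% intervals for counting error. The mature share was 0.371% in MOCK and 0.757% in NAV, and both other gates were also larger in NAV.

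Ccr7, the receptor for the lymph node chemokines CCL19 and CCL21 (chr11:99144196-99155077, minus strand, GRCm38), held 935 UMIs in the 40 MOCK members and 1592 in the 79 NAV members, or 5923 and 4914 counts per 1000000 UMIs of the members (CPM). Fscn1 (chr5:142960343-142973185) held 587 and 930 UMIs. Ccl22, the ligand of CCR4, was seen in 22 of 40 and 53 of 79 members. Cacnb3, a subunit of voltage-gated calcium channels, was seen in 34 and 67 members, and Il4i1, a secreted amino acid oxidase, in 19 and 16. The marker sum ran from 4 to 140 in MOCK (median 44.5) and from 4 to 125 in NAV (median 36), so most members lay far from the threshold of that sum. Only 2 MOCK members and 1 NAV member had a sum of 4 or 5, and 1 MOCK and 3 NAV barcodes just outside had a sum of 3. A further 4 MOCK and 3 NAV barcodes were kept out by C1q alone, and 32 and 72 members had no C1q UMI. The demand for 1 UMI each of Ccr7 and Fscn1 kept out many more. With a sum of at least 4 and within the caps, 114 MOCK and 144 NAV barcodes had Ccr7 but no Fscn1 UMI. Another 14 and 19 had no Ccr7 UMI. Barcodes without Fscn1 thus outnumbered the members in both libraries, and what they are was not tested.

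Socs2, a suppressor of cytokine signalling and a marker of these cells that the rule did not use, fits the label. It was seen in 28 of 40 MOCK members (114 UMIs, 722 CPM) and in 54 of 79 NAV members (195 UMIs, 602 CPM). Against the cDC2 gate it was 34.8-fold higher in MOCK (log2 5.12, 4.34 to 6.00) and 34.6-fold higher in NAV (log2 5.11, 4.40 to 5.92). At 2400 UMIs per cell, 78.1% of MOCK and 63.2% of NAV members had a Socs2 UMI, against 4.3% and 4.1% of barcodes in a B cell gate, which serves here as a background. Only 47 MOCK and 98 NAV barcodes of the B cell gate reached that depth, and 720 and 657 were left out. Each B cell share at this depth, here and below, thus rests on few and deep B cells. Before thinning the members' shares were 70.0% and 68.4%. The rule itself capped some markers of other lineages, so the sums of the remaining markers are given as a description only. They were 3 and 4 UMIs for 8 T cell markers, 14 and 16 for 7 B cell markers, 7 and 27 for 6 neutrophil markers and 34 and 57 for 8 macrophage markers.

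Members differed from cDC2-gate cells at many genes, and did so in both libraries. Of 5116 genes with enough counts, 389 (7.6%) were more than 2-fold higher in members, with the interval beyond 0, in MOCK and in NAV alike, and 476 (9.3%) were lower. Against cDC1-gate cells 435 of 4075 genes (10.7%) were higher and 403 (9.89%) lower. Over both gates at once 262 of 3965 genes (6.61%) were higher and 199 (5.02%) lower. These counts describe cells picked by a gate on genes that vary with the rest of the program, so they are no test of it. The gates were also chosen by their own markers, which were left out of the rankings.

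**Figure D2:**
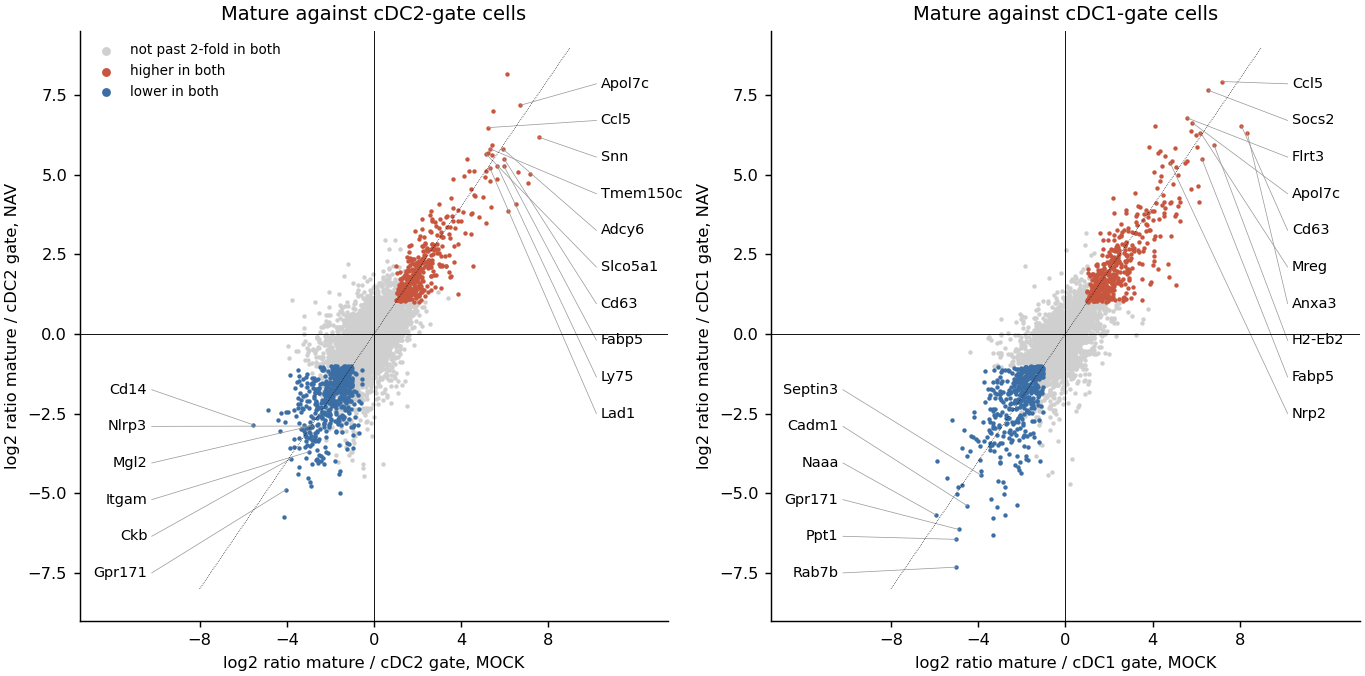
Log2 ratio of CPM in mature dendritic cells over cDC2-gate cells (left) and cDC1-gate cells (right), MOCK on the x axis and NAV on the y axis, 1 point per gene, with 3 counts used where a group had none. Red and blue genes were past 2-fold the same way in both libraries (389 and 476 genes on the left, 435 and 403 on the right); the dotted line marks equal ratios.

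The chemokine Ccl5, which attracts T cells and NK cells, led by abundance. It held 593 UMIs in 37 of 40 MOCK members and 1415 UMIs in 69 of 79 NAV members, against 72 and 48 UMIs in all cDC2-gate cells. That is 37.7-fold and 89.0-fold higher than the cDC2 gate and 147-fold and 242-fold higher than the cDC1 gate. Single members ran from none to 161 and 353 Ccl5 UMIs per 10000, with medians of 31.9 and 34.9, so the gene was widespread rather than carried by a few cells. Ccl17, the other CCR4 ligand, was seen in 21 and 34 members and was 2.03-fold and 4.43-fold higher than in the cDC2 gate. Of 12 chemokines on the list, 8 could be compared with the cDC2 gate and 2 of them (Ccl5, Ccl17) were higher, where 7.6% of all genes were. Ccl19 was listed at 0 in every member.

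Apol7c, an apolipoprotein L of dendritic cells, was seen in members and in neither gate. It had 69 UMIs in 14 MOCK members and 144 UMIs in 18 NAV members, and none in the cDC1- or cDC2-gate cells of either library, at least 105-fold and 145-fold higher than the cDC2 gate at a floor of 3 counts over the gate. Its family has close copies in the genome, so its reads are uncertain. Tmem150c, a membrane protein, had 26 and 56 UMIs and none in either gate, and Adcy6, an adenylate cyclase, had 39 and 56 UMIs against 0 and 0 in the cDC2 gate. While Adcy6 and Tmem150c were seen in 21 and 31 and in 16 and 31 members, Apol7c was held by fewer members at higher counts, up to 53.8 and 70.8 UMIs per 10000. Lad1, an anchoring filament protein, had 26 and 37 UMIs and none in the cDC2 gate.

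Further genes ranked among the highest have varied known roles. Fabp5, a fatty acid binding protein, was 62.0-fold and 38.7-fold higher than in the cDC2 gate (217 and 526 UMIs). Cd63, a tetraspanin of late endosomes, was 62.3-fold and 45.3-fold higher (109 and 270 UMIs). Macrophages also held Cd63, at 362 and 432 CPM against 691 and 833 CPM in members. Ly75, the endocytic receptor DEC-205, was 50.3-fold and 38.6-fold higher than the cDC2 gate but 6.37-fold and 9.69-fold higher than the cDC1 gate, which holds it too. H2-Eb2, a class II beta chain gene, was 21.9-fold and 23.5-fold higher than in the cDC2 gate, and 36.2% and 34.7% of thinned B cells had it. Snn, Mreg, Anxa3, Gnb4, Eno3, Slco5a1, Strip2, Gypc, Tspan3 and Slc4a8 were ranked among the first as well.

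Of 16 migration and cytoskeleton genes 8 were higher than in the cDC2 gate (7.6% of all genes were) and 10 were higher than in the cDC1 gate (10.7% of all), with 0 lower than either. The membrane-anchored protease Mmp25 was 17.0-fold and 14.3-fold higher than in the cDC2 gate, with 178 UMIs in 34 MOCK members and 298 UMIs in 65 NAV members. Plxnc1, a semaphorin receptor, was 7.91-fold and 9.92-fold higher. Swap70, which acts on actin in migrating dendritic cells, was 3.12-fold and 2.71-fold higher, and the actin crosslinker Marcks 2.93-fold and 3.53-fold higher. Tmem123, a mucin-like surface protein, was seen in 40 of 40 and 78 of 79 members and was 10.2-fold higher in either library.

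On the list of inhibitory ligands and regulators, 7 of 12 genes were higher than in the cDC2 gate and 3 lower (Socs3, Tgfb1, Havcr2). Over all genes 7.6% were higher and 9.3% lower. Against the cDC1 gate 6 of 8 were higher and Havcr2 was lower, where all genes gave 10.7% and 9.89%. The list includes Socs2, the marker described above, which is among the higher genes in both counts. Cd200 was 44.2-fold and 128-fold higher than in the cDC2 gate, from 29 UMIs in 16 MOCK members and 85 UMIs in 44 NAV members. Pdcd1lg2 was 28.6-fold and 12.7-fold higher (25 and 38 UMIs), and Aldh1a2, the enzyme that makes retinoic acid, 22.1-fold and 13.6-fold higher (29 and 45 UMIs). Cd274 was seen in 35 of 40 and 63 of 79 members and was 3.18-fold and 4.50-fold higher. At equal depth 75% and 66.2% of members had a Cd274 UMI, against 24.7% and 23.3% of cDC2-gate cells and 31.9% and 17.3% of the B cell gate. Ido1 and Ido2, enzymes of tryptophan breakdown, had no UMI in any member.

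Of the 8 costimulation genes compared with the cDC2 gate, 0 passed 2-fold, where all genes gave 7.6% higher and 9.3% lower. Cd80 differed from the cDC2 gate by log2 0.41 and -0.03, Cd86 by 0.58 and 0.31, Cd40 by 0.23 and 0.45, and Cd83 by 0.31 and 0.31. Against the cDC1 gate 4 of 7 were higher (Cd80, Cd40, Icosl, Tnfsf9) and Cd24a was lower, where all genes gave 10.7% and 9.89%. Cd40, the receptor through which T cells license dendritic cells, was then higher by log2 3.18 and 3.16. For this list the members lay close to the cDC2 gate, and for 4 genes above the cDC1 gate.

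Among cytokines and receptors, Il12b, encoding the p40 chain of IL-12 and IL-23, stood out. It held 157 UMIs in 17 of 40 MOCK members and 366 UMIs in 38 of 79 NAV members, and was 71.8-fold and 14.5-fold higher than in the cDC2 gate and 20.5-fold and 27.9-fold higher than in the cDC1 gate. Most members lacked it, and the highest held up to 77.8 and 69.1 UMIs per 10000. The partner chains Il12a and Il23a had no UMI in any member. Receptor genes were also higher: Tnfrsf9, the costimulatory receptor 4-1BB, was 19.1-fold and 45.3-fold higher than in the cDC2 gate, and Il2ra, the high-affinity IL-2 receptor chain, 6.63-fold and 6.92-fold higher. Il1b, encoding an inflammatory cytokine, was lower than in the cDC2 gate by log2 -1.01 and -1.41. It was the 1 lower gene among the 14 compared, of which 5 were higher. Over all genes 7.6% were higher and 9.3% lower.

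Of 20 NF-kB and survival genes 15 were higher than in the cDC1 gate and 2 (Relb and Birc2) were higher than in the cDC2 gate, with 0 lower than either; over all genes 10.7% and 7.6% were higher, so the count against the cDC2 gate is near the share of all genes. Relb, the subunit of the noncanonical NF-kB pathway, was 4.76-fold and 4.77-fold higher than in the cDC2 gate and 12.1-fold and 6.51-fold higher than in the cDC1 gate. Birc2, an inhibitor of apoptosis, was 5.84-fold and 4.31-fold higher than in the cDC2 gate. Bcl2a1b and Bcl2a1d, survival genes with near-identical sequence, were higher than in the cDC1 gate, but reads may be split between them.

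On the list of antigen uptake and pattern recognition 8 of 10 genes were lower than in the cDC2 gate and 0 higher, where 9.3% of all genes were lower. Examples were Cd14, a receptor for bacterial lipopolysaccharide (3 and 26 UMIs against 639 and 566), Clec4n (1 and 8 against 133 and 126) and Mrc1, the mannose receptor (0 and 0 against 50 and 40). Nlrp3, the inflammasome sensor, was lower by log2 -2.83 and -2.89. Of 11 class II genes 4 were lower than in the cDC2 gate and the other 7 did not pass 2-fold: H2-Ab1 by log2 -1.62 and -1.22, H2-DMa, H2-DMb1 and H2-Ob. H2-DMb1, a chain of the peptide editor DM, was lower by log2 -2.04 and -2.54. Of 16 class I genes 6 were higher than in the cDC2 gate and 0 lower (7.6% of all genes were higher). The transactivator Nlrc5 was 6.22-fold and 7.02-fold higher, the proteasome activator subunit Psme2 6.62-fold and 3.96-fold, and H2-K1 2.12-fold and 2.16-fold, with the reservation that class I genes have near-identical relatives.

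Of 15 genes of endoplasmic reticulum chaperones and secretion 5 were lower than in the cDC2 gate, where 9.3% of all genes were, among them Hspa5, the chaperone BiP (log2 -1.75 and -1.41), and 1, Herpud1, was higher (1.34 and 1.17). Glycolytic enzymes gave 4 of 13 lower than in the cDC2 gate and 4 of 12 lower than in the cDC1 gate (9.3% and 9.89% of all genes). None of the 18 COPI and ARF genes compared differed past 2-fold from the cDC2 gate, and 1 of 17, Arf4, was higher than in the cDC1 gate (log2 1.67 and 1.94). Over all genes 10.7% were higher than in the cDC1 gate.

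Markers of the parent types were compared with both gates. Of 10 cDC1 genes 8 were lower than in the cDC1 gate and 0 higher (9.89% of all genes were lower). Of 8 cDC2 genes 3 were lower than in the cDC2 gate and 0 higher (9.3% of all genes were lower). Some UMI of the cDC2 list was seen in 38 of 40 MOCK and 76 of 79 NAV members. For the cDC1 list these counts were 37 and 79. Against the cDC1 gate 4 of 8 cDC2 genes were higher (Sirpa, Irf4, Mgl2 and S100a4) and Cd7 was lower, with a list median of log2 1.5 and 1.12. Over all genes 10.7% were higher than in the cDC1 gate. Xcr1, Clec9a and Cadm1 gave any UMI in 2 of 40 MOCK and 6 of 79 NAV members, and Cd209a, Clec10a and Mgl2 in 2 and 8. No member had both, and 36 and 65 had neither. Among cDC1 genes outside the gate, Naaa, a lysosomal amidase, had 4 and 9 UMIs in members against 615 and 943 in the cDC1 gate (log2 -5.95 and -5.67), and Wdfy4, needed for cross-presentation, was lower by log2 -3.92 and -3.53. Septin3 had no UMI in any member against 109 and 133. Mgl2, a cDC2 lectin, was lower than in the cDC2 gate by log2 -3.00 and -2.90, and the integrin Itgam by -2.98 and -3.69. The transcription factor Irf8, a cDC1 regulator, was 14.6-fold and 7.14-fold higher than in the cDC2 gate and within 2-fold of the cDC1 gate (log2 0.88 and 0.07). From these markers the parent types of most members cannot be told apart.

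**Figure D3:**
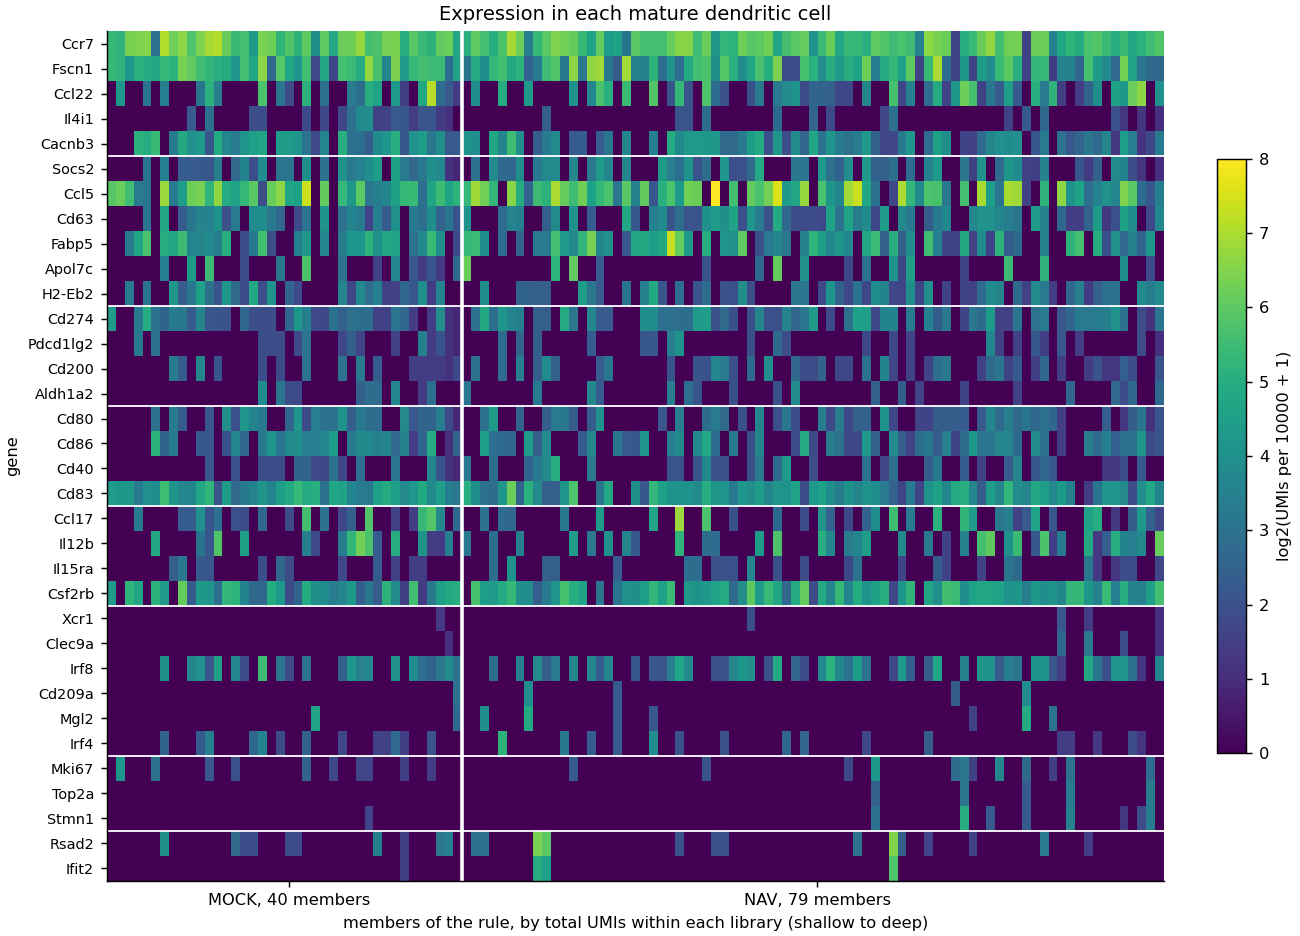
Expression in each of the 119 members, as log2 of UMIs per 10000 plus 1, with 1 column per member (40 MOCK left of the white line, 79 NAV right, shallow to deep within each library) and 1 row per gene. The top 5 rows are genes of the rule; Ccl5 and Cd83 fill most columns, Il12b and Ccl17 part of them, and Xcr1, Clec9a, Cd209a and Mgl2 few.

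Promoters of the genes higher in members were searched for the NF-kB consensus by its standard letters on both strands, since this factor family drives dendritic cell maturation. RefSeq windows from 250 bases before to 50 after the gene start (GRCm38.p6) held a match in 41 of 213 genes higher than both gates (19.2%), in 435 of 3204 genes compared (13.6%) and in 15 of 150 genes lower than both gates (10%). Over all 27025 genes with a window the share was 9.55%. An interferon-stimulated response element was searched in the same way and matched in 6.10% of the higher genes, 4.37% of the compared, 6% of the lower and 3.99% of all. Windows with both motifs numbered 81, and in 2 of them the matches overlapped. Of the 31 genes ranked highest against either gate 23 had a window and 4 of these had an NF-kB match. The 4 windows are printed 5′ to 3′ along the gene with the matches in capitals: Tmem150c at chr5:100159526-100159825 (minus strand), Mmp25 at chr17:23645220-23645519 (minus strand), Slc4a8 at chr15:100761497-100761796 (plus strand) and Tmem176a at chr6:48841233-48841532 (plus strand). They show how the match differs in letters and position among these members' genes, and a match is a run of letters, not a binding site.
Tmem150c: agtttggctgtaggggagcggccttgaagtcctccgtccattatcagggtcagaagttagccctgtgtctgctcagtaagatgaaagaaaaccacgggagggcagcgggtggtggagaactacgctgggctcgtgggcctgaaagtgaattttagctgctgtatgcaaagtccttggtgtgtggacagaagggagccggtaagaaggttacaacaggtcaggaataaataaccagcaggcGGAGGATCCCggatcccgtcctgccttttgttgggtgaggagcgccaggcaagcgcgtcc
Mmp25: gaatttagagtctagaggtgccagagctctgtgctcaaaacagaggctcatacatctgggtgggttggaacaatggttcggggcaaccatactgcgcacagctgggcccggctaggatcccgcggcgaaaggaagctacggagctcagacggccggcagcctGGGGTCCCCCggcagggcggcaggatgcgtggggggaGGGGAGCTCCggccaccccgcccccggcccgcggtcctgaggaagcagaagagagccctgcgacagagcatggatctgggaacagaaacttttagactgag
Slc4a8: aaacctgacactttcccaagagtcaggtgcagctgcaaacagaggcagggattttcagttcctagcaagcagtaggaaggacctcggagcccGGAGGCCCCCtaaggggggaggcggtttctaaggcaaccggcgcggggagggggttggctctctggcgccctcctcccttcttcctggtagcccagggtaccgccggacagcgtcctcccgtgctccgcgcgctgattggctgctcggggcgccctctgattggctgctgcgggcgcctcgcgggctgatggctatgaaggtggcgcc
Tmem176a: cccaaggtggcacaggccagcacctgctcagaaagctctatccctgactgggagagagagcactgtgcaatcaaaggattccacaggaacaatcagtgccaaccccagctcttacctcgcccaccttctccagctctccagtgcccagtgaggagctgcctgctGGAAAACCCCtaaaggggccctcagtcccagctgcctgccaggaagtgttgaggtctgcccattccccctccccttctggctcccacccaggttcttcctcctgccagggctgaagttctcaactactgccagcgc

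Between the libraries most genes of the members kept close levels. Of 3648 genes with at least 20 UMIs over both, 116 (3.18%) were past 2-fold higher in NAV with the interval beyond 0 and 157 (4.3%) were lower, and the median log2 ratio was 0.02. In the summed cDC1 and cDC2 gates 0.919% of genes were higher and 2.14% lower by the same rule. The members' sums were shallower, 157852 and 323949 UMIs against 722013 and 977482 in the cDC2 gate alone. Shares of genes called in members therefore do not compare like with like with those of the 2 summed gates. Of the 157 lower genes, 50 were also called lower in those gates and 51 in the macrophage gate, where 2.18% of all genes compared were lower and 0.718% higher, and 120 of 155 had the same sign in the other dendritic cells. Of the 116 higher genes, 10 were also called in the other dendritic gates and 2 in the macrophage gate, and 75 of 114 had the same sign. No gene was called in opposite directions. The members and the other gates come from the same 2 libraries, so treatment and library cannot be told apart in either.

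**Figure D4:**
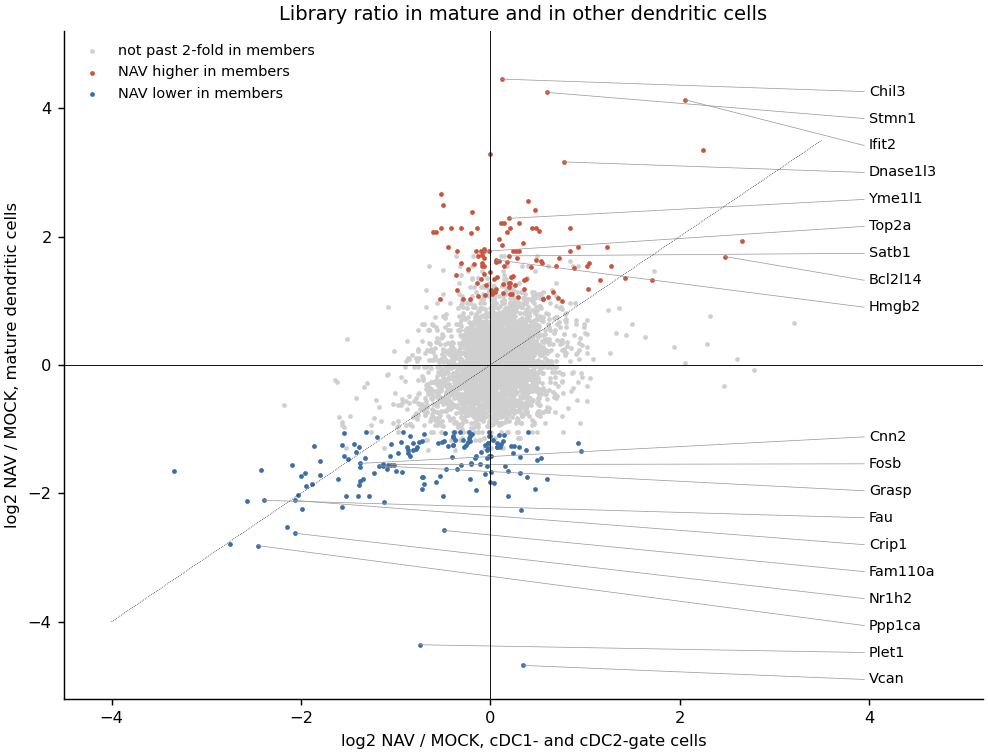
Log2 NAV/MOCK ratio of CPM in mature dendritic cells (y axis) against that in the cDC1 and cDC2 gates together (x axis), 1 point per gene with at least 20 UMIs in members and at least 20 in those gates. Red and blue genes were past 2-fold in members, 114 of the 116 higher and 155 of the 157 lower ones having enough UMIs in the gates. Ppp1ca, Fau and Crip1 lie near the dotted line of equal ratios, while Dnase1l3, Yme1l1 and Fam110a lie nearer to 0 on the x axis.

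Dnase1l3, a secreted nuclease that digests DNA of dying cells, ranked second among the genes higher in NAV members. It had 5 UMIs in 2 of 40 MOCK members and 92 UMIs in 20 of 79 NAV members, 31.7 and 284 CPM, a log2 ratio of 3.16 (1.89 to 4.82). In the other dendritic gates the ratio was 0.77 (0.34 to 1.23). At equal depth 3.1% of MOCK and 20.6% of NAV members had a UMI, against 8.5% and 11.2% of the B cell gate (47 and 98 deep barcodes). The MOCK share, from 32 members, was no higher than this small background. Yme1l1, a mitochondrial inner membrane protease, went from 4 UMIs in 3 members to 40 UMIs in 27 members (log2 2.28, 0.82 to 4.23), with 0.20 in the other gates. Sox4, a transcription factor, had 0 UMIs in MOCK and 25 in 15 NAV members, at least log2 2.02 higher against a floor of 3 MOCK counts (the lower limit of the counting interval was 1.62), and Satb1, a chromatin organiser abundant in lymphocytes, 0 and 20 in 9 members, at least log2 1.70 higher by the same floor (lower limit 1.27). The B cell gate held Satb1 at 1278 and 1270 CPM. Bcl2l14, a Bcl2 family gene, was higher in members (log2 1.69, 0.84 to 2.65; 13 and 86 UMIs) with 2.48 (0.99 to 4.44) in the other gates.

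Several of the largest ratios rested on 1 member. Chil3, a chitinase-like protein of monocytes and alveolar macrophages, had 1 UMI in MOCK and 45 in NAV, of which 40 were in a single NAV member. That member also held 84 of the 105 Lyz2 UMIs and in all 174 of the 241 UMIs of monocyte markers in NAV members (72.2%), and had 7044 UMIs; its part in other ratios was not tested. Without the Lyz2 UMIs of the member richest in Lyz2 in each library, and with the totals kept, the NAV/MOCK ratio of Lyz2, encoding lysozyme, went from log2 1.03 to -0.81. On the MOCK side Vcan had 25 UMIs against 2, with 24 in 1 member, and Plet1 had 20 against 2, with 19 in 1 member. Ifit2, an interferon-induced gene, had 1 and 36 UMIs, with 24 in 1 NAV member.

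The 8 named genes lower in NAV members that did not rest on 1 member also had negative ratios in the other dendritic gates. Ppp1ca, a protein phosphatase subunit, went from 48 to 14 UMIs (log2 -2.81, -3.79 to -1.93), with -2.45 in the other dendritic gates. Crip1 (-2.11 against -2.06), the ribosomal fusion gene Fau (-2.11 against -2.39) and Nr1h2, the oxysterol receptor LXR beta (-2.62 against -2.06), behaved alike. Fam110a, which binds centrosomes, was lower in members (32 and 11 UMIs, log2 -2.58, -3.71 to -1.55) with -0.49 (-0.87 to -0.11) in the other gates. Fosb, Cnn2 and Grasp were lower by log2 -1.55, -1.53 and -1.57, with -1.05, -1.38 and -1.18 in the other gates.

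Few genes of the members' own function passed 2-fold between libraries, but some lists leaned to lower values in NAV. Intervals lay below 0 for 3 of 10 inhibitory, 4 of 9 costimulation and 4 of 15 cytokine and receptor genes. They lay above 0 for 1, 0 and 1. Among 7 chemokines 1 lay below 0 and 2 above. Over all 3648 genes 295 lay below 0 and 227 above. Of the 10 tested inhibitory genes 0 were higher and 2 lower in NAV (Socs1, log2 -1.34, -2.51 to -0.19; Havcr2, -1.42, -2.59 to -0.30), against 3.18% and 4.3% of all genes, with a median of -0.40. Without each gene's UMIs in its richest member of each library these were -1.16 and -1.30, and their intervals then held 0. Cd274 went from 475 to 685 CPM (log2 0.53, 0.14 to 0.93), with -0.03 (-0.35 to 0.29) in the other dendritic gates. Cd200 had a ratio of 0.51 (-0.11 to 1.18) and Pdcd1lg2 of -0.43 (-1.20 to 0.36). Among 9 costimulation genes 0 were higher and 1 lower (Tnfsf9, log2 -1.22, -2.0 to -0.46, with -1.04 in the other gates), and the median was -0.33. Cd80 was at 551 and 370 CPM (log2 -0.57, -0.98 to -0.16), Cd86 at 805 and 642, and Cd40 at 209 and 241. These are differences of under 2-fold between single libraries.

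The chemokine and cytokine genes that led in members are given beside the other dendritic gates, and the difference between the ratios was not tested. Ccl5 was at 3757 and 4368 CPM in members (log2 0.22, 0.08 to 0.36) and at -1.01 (-1.52 to -0.51) in the other gates. Ccl17 had -0.26 (-0.56 to 0.05) in members and -1.62 (-1.88 to -1.37) in the others, where 323 cDC2-gate UMIs in MOCK stood against 167 in NAV. For Il12b the members gave 995 and 1130 CPM (log2 0.18, -0.09 to 0.46), and the others 1.27 (0.66 to 1.91). Cxcl10, a ligand of CXCR3, was higher in NAV members (13 and 68 UMIs in 3 and 7 cells, log2 1.35, 0.48 to 2.33). Of the 68 UMIs 24 were in 1 NAV member. With the ratio of the other gates subtracted Cxcl10 was at log2 -0.073. Ccl4 was lower (20 and 13 UMIs, log2 -1.66, -2.79 to -0.58). They were 2 of 7 chemokines tested, where 3.18% of all genes were higher and 4.3% lower. Among 15 cytokine and receptor genes only Il4ra, a chain of the IL-4 receptor, was called, lower in NAV (58 and 41 UMIs, log2 -1.54, -2.15 to -0.94), with -1.13 in the other gates. Il15ra was at 95 and 151 CPM (log2 0.67, -0.19 to 1.61).

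**Figure D5:**
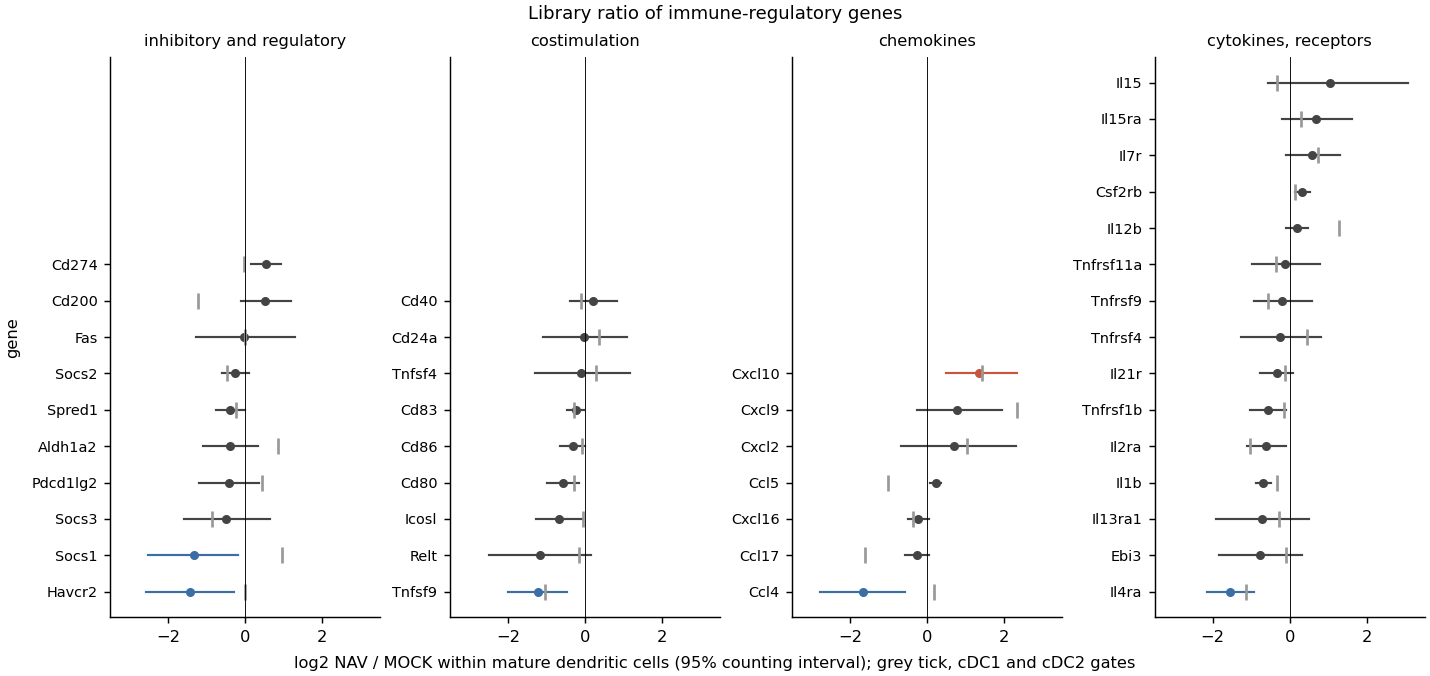
Log2 NAV/MOCK ratio of CPM within mature dendritic cells (x axis, points with 95% counting intervals) for the tested genes of 4 lists (y axis); grey ticks give the ratio in the cDC1 and cDC2 gates. Red (Cxcl10) and blue (Socs1, Havcr2, Tnfsf9, Ccl4, Il4ra) genes were past 2-fold with the interval beyond 0, and most other intervals hold 0.

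For the remaining lists the background is again 3.18% of all genes higher and 4.3% lower in NAV, and a single call among 10 to 20 genes is near those shares. NF-kB and survival genes had a median log2 ratio of -0.38 in members and -0.36 in the other dendritic gates. In members the interval lay below 0 for 10 of these 20 genes and above 0 for 0. Of 20 tested 0 were higher and 3 lower in NAV: Rela (-1.59, others -1.38), Nfkb2 (-1.75, others -0.71) and Bcl2l1 (-1.68, others -1.23). Migration genes gave 0 higher and 1 lower of 17 (Gpr183, an oxysterol receptor that guides dendritic cells, log2 -1.17, -1.76 to -0.60). Class II genes gave 0 higher and 1 lower of 10 (H2-DMa, -1.68, with -1.96 in the others), and a median of 0.11. Of 16 class I genes 2 were higher in NAV, both for making or moving peptides: Psmb9, an immunoproteasome subunit (15 and 93 UMIs, log2 1.60, 0.80 to 2.49, others 1.04), and Tap2, a peptide transporter chain (11 and 46 UMIs, log2 1.03, 0.06 to 2.13, others 0.56). With each barcode weighted equally Tap2 was at 0.41. On the uptake list, where 5 genes were tested, Cd14 was higher in NAV (3 and 26 UMIs, log2 2.08, 0.37 to 4.45, others -0.57) with 10 of the 26 UMIs in 1 member, and Myd88 was lower.

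Type I interferon genes were uneven. Of 9 tested, 4 were higher in NAV members (Ifit1, log2 1.93, 0.58 to 3.63, Ifit2, Usp18 and Stat2) and 2 lower (Isg15, log2 -1.26, and Ifi27l2a, -1.77); the median was 0.65 in members and 0.89 in the other dendritic gates. The list summed to 182 UMIs in MOCK and 535 in NAV, of which 135 (25.2%) were in 1 NAV member. Without the Ifit1 UMIs of the member richest in Ifit1 in each library the Ifit1 ratio was 1.38 with an interval that held 0. Leaving out the richest member of each library with all its UMIs took the list's sum from 1153 and 1651 CPM to 1007 and 1252 CPM. Interferon-gamma genes gave 2 higher and 1 lower of 9.

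Genes of the pathway that the compound acts on were close to level. Of 15 tested COPI and ARF genes, Copb2, a coat subunit, was higher in NAV (10 and 43 UMIs, log2 1.07, 0.05 to 2.23) and Arfgap3, an ARF GTPase activating protein, lower (15 and 10 UMIs, -1.62, -2.94 to -0.37), with a median of 0.24. Without the cycling members described below Copb2 was at 1.01 and its interval held 0. Arf6 had a ratio of 0.09 (-0.24 to 0.42), Arf1 of -0.14 (-0.58 to 0.31) and Arf4 of 0.50 (0.21 to 0.80). Of 12 tested chaperone and secretion genes none passed 2-fold, with a median of 0.02. RNA levels do not read the activity of these proteins.

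Cycling members were seen in NAV. With cycling defined, after the data were seen, as at least 5 UMIs of 11 cell cycle genes, 0 of 40 MOCK members (0% to 8.81%) and 7 of 79 NAV members (8.86%, 3.64% to 17.4%) met it, and the intervals overlap. In the cDC1 gate 16.7% and 22.7% of cells met it and in the cDC2 gate 15.3% and 20%. Of the 39 Stmn1 UMIs in NAV members 36 were in the 7 cycling ones, as were all 21 of Top2a, a topoisomerase of dividing cells. Hmgb2, a chromatin protein of proliferating cells, was at 21 and 134 UMIs (log2 1.64), and without the cycling members at log2 0.58. The cycling members held 11 Socs2 UMIs in 5 of 7 cells (264 CPM), against 184 in 49 of 72 other NAV members (652 CPM). Of the rule genes, Ccr7 was at 3699 and 5094 CPM, Fscn1 at 1249 and 3110, and Ccl22 at 2738 and 1357. Cycling members were also deeper, with a median of 5218 against 3604.5 UMIs, and the cut of 5 UMIs was not adjusted for depth. Without the cycling members the NAV/MOCK log2 ratio of the members' share was 0.89.

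Pairs of genes in the same member were counted for 6 pairs, and Ccl22, a gene of the rule, is in 3 of them, so those are not independent of how members were chosen. At 2400 UMIs per cell 32 MOCK and 68 NAV members were deep enough. Of the 16 MOCK members with a Ccl22 UMI 12 had Il12b, against 4 of 16 without. In NAV these were 25 of 44 against 6 of 24. Ccl17 was seen in 75% of Ccl22-positive and 31.3% of Ccl22-negative MOCK members, and in 47.7% and 25% in NAV. Cells of 1 library share their source, so these are descriptions of the 2 libraries. Il12b was in 64.7% of Ccl17-positive and 33.3% of Ccl17-negative MOCK members, but in 44.4% and 46.3% in NAV. By Ccl5 it was in 50% and 50% in MOCK, with 2 members lacking Ccl5, and in 52.6% and 9.09% in NAV, with 11 lacking it. Ccl22 was in 53.3% of Ccl5-positive and 0% of Ccl5-negative MOCK members and in 64.9% and 63.6% in NAV. Cd80 was in 70.8% of Cd274-positive and 87.5% of Cd274-negative MOCK members and in 48.9% and 43.5% in NAV.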

How the data were processed

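CD45+ cells of 2 libraries, MOCK and NAV, were profiled on BD Rhapsody. The authors deposited UMI counts, whole numbers for 31253 genes in every barcode, and the lowest barcode total is 500. Tools named per the submitters' processing notes are Cell Ranger, STARsolo 2.7.10a and fastp, on mm10, without their roles. A filter of 200 genes and a mitochondrial share under 20% removed 93 MOCK and 24 NAV barcodes. The members and the gene lists were chosen with earlier results of these data known.

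UMIs were summed per library and gate, CPM is per 1000000 of that sum, and ratios have exact 95% intervals conditional on both counts (scipy 1.17.1). A gene was called past 2-fold with the interval beyond 0 and at least 20 UMIs; a count of 0 was set to 3 over the gate, for a bound. Shares have exact Clopper-Pearson intervals. Genes named were the 20 higher and 10 lower against each gate and the 10 in each direction between libraries, ranked by the bound nearest to 0, and members of the lists; mitochondrial, ribosomal, receptor segment, sex-linked, rule and gate genes were left out of ranks. Scrublet's automatic threshold marked 1 and 0 barcodes and had not worked; no doublets were removed, and a score above 0.25, which 0 members had, was an alternative. Free RNA was not modelled; a B cell gate gives a background. The calling code was tested on simulated data. Alternatives were other filters, thresholds, scalings, thinning and left-out members.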

Additional observations from a re-analysis of the deposited data

How the results depend on the processing

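The larger NAV share kept its direction under each alternative run, with log2 ratios of 0.89 to 1.5, and the share of the 3 dendritic gates stayed at 0.30 to 0.45. Requiring at least 50 UMIs per gene left 38 genes higher and 47 lower in NAV, 230 higher than the cDC2 gate, and 262 higher and 244 lower than the cDC1 gate; fewer genes were then tested. Elsewhere the counts stayed within 1.5 times, 103 to 168 higher and 111 to 183 lower in NAV. Subtracting the ratio of the other dendritic gates turned Bcl2l14 to -0.79, Fau to 0.28, Cxcl10 to -0.073, Ifit1 to -0.73 and Hspa1b to -0.39. Removing the richest member's UMIs of the gene turned Lyz2 to -0.81, and the cause of these turns was not tested. The settings without cycling members and without each gene's UMIs in its richest member were chosen after seeing the data. For single genes 379 values moved little, 26 moved and 6 reversed. Of the named genes' calls between libraries, 24 ended when the ratio of the other dendritic gates was subtracted, among them Ppp1ca (-0.36), Crip1 (-0.045), Rela (-0.21) and Psmb9 (0.56). At a C1q sum of at most 1 the calls of Havcr2, Fn1, Hspa1b and Tap2 (0.89) ended, and with equal weight per barcode those of Socs1, Tnfsf9, Lyz2 and Tap2. No paired analysis was possible because each group is 1 library with no replicate numbers. Members' summed depth limits what can be read for rare genes.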
